A study of Homo sapiens with 9 samples.

Results

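Domain borders that Hi-C showed in RAS-induced senescence (RIS) and not in growing cells were described across the 22 autosomes of IMR90 human diploid lung fibroblasts. A border was a local minimum of the insulation score, which is the log2 mean ICE-balanced contact between the 13 bins of 40 kb (520 kb) on either side of a position, minus the median of the chromosome, so that a lower score means fewer contacts across. The minimum had to have a prominence, its depth below the surrounding scores, of 0.1 or more. Members were called at the same position in both RIS libraries, with no border within 2 bins (80 kb) in any growing library. This rule gave 240 gained borders, or 5.29% of the 4537 borders placed at the same position in both RIS libraries, among 65541 positions scored in all 5 Hi-C libraries. The members were thus selected on the RIS and growing scores themselves, and those scores are given below as a description with no test.

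All cells carried the ER:HRAS(G12V) construct, which 4-hydroxytamoxifen (4OHT) activates, and were at passage 20-25. For RIS, 4OHT was given at 100 nM over 6 days (2 libraries), and growing cells had no tamoxifen (3 libraries). The label of growing replicate 3 adds an MSCV vector. Values of single libraries are always listed in the order of their replicate numbers. Capture Hi-C (cHi-C), which enriches contacts of chosen regions, was measured in 2 growing and 2 RIS libraries of the same ER:HRAS(G12V) cells, and the rule did not use it. The study calls the libraries biological replicates, and the labels do not say whether they came from separate cultures, so p-values measure the spread between these libraries, which may be partly technical. Contact maps average over many cells, so a border in more cells and a stronger border in each cell cannot be told apart, and the labelled cell type could not be checked against expression markers.

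Domain borders are thought to arise where cohesin, extruding a chromatin loop, is held up, most often at CTCF bound to its motif. Active genes can also halt or move cohesin, which then gathers towards gene ends. Borders limit contacts between neighbouring stretches of chromatin, among them contacts between enhancers and promoters. In oncogene-induced senescence, chromatin is reorganised into heterochromatin foci while secretory genes are switched on.

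To show the sequence at some gained borders, the conserved 9-letter core of the CTCF consensus, AGGGGGCGC, was searched on both strands in the zone of 40 kb on either side of each border. These are the matches at 4 of the 12 borders with the largest fall of the score and at the border in PDGFRB, each with 10 flanking bases of GRCh37 on either side, read 5′ to 3′ on the strand of the match, with the core in capitals.
HMGA2: gaagaggactAGGGGGCGCcaacgttcga
SLC16A3 and CSNK1D: gcggtggggtAGGGGGCGCctcctgaccc
no gene, nearest start PCDH9: gcagctgcggAGGGGGCGCtgggtgcccc
HEXD and CYBC1: tcttccctgtAGGGGGCGCtgctgatgct
PDGFRB: ggccgggcccAGGGGGCGCcggcaccggg
The HMGA2 match lies at chr12:66357061-66357089 on the plus strand, in an untranslated exon of HMGA2 and 2.93 kb left of the border. The SLC16A3 match, chr17:80189302-80189330, plus strand, is in an exon of SLC16A3, 10.7 kb left of the border. The third, chr13:68347275-68347303, minus strand, is outside protein-coding genes, 27.3 kb right of the border. The HEXD match, chr17:80382611-80382639, minus strand, is in an intron of HEXD, 17.4 kb left of the border. The last, chr5:149546736-149546764, minus strand, is in a coding exon of CDX1, the neighbour of PDGFRB, 26.7 kb right of the border.

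The core was found in the zones of 57 of the 240 gained borders (23.8%), against 23.9% of 4049 borders found within 1 bin in all 5 libraries and 14.4% of all scored positions. Its 70 matches at gained borders were read away from the border in 54.3% of cases, and the 1374 matches at borders of all 5 libraries in 55.9%. A match of these letters is no evidence of binding, and no sequence was used by the rule. The core is rich in G and C, and the median GC content was 41.9% at gained borders, against 39.8% over all scored positions. The part of GC content in these shares was not tested.

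The growing libraries held 154318992, 175410468 and 180775315 recovered Hi-C contacts and the RIS libraries 109967509 and 150689993. The square of contacts across a gained border held a median of 3552, 4016 and 3978.5 contacts in growing cells, against 2237.5 and 3070 in RIS cells. The smallest such count was 76, in RIS replicate 1. RIS libraries had more borders, 5371 and 5629, than growing libraries, 5031, 5035 and 5154. By the study's duplicate counts, growing replicates 1 and 2 and RIS replicate 1 had few duplicates, and growing replicate 3 and RIS replicate 2 had many.

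Most gained borders had a shallow minimum nearby in growing cells. A local minimum of any depth under the threshold lay within 2 bins in at least 1 growing library at 230 of 240 members (95.8%), and in all 3 at 191 (79.6%). Of the 38268 scored positions with no growing border within 2 bins, 48.7% had such a minimum in at least 1 growing library and 27.3% in all 3. With 0 taken where there was no minimum, the median prominence was 0.046, 0.046 and 0.048 in growing cells, against 0.158 and 0.166 in RIS cells. All growing values stood below and all RIS values above the threshold, as the rule demands. The lower RIS prominence exceeded the highest growing prominence by 0.1 or more at 92 members, and by less than 0.05 at 67. Both RIS prominences reached 0.2 at 56 members and 0.5 at 21. At those 21 the median prominence was 1.11 in RIS and 0.033 in growing cells, while the median change of the score was only -0.16. A high prominence thus did not mean an equally large fall of the score.

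**Figure D1:**
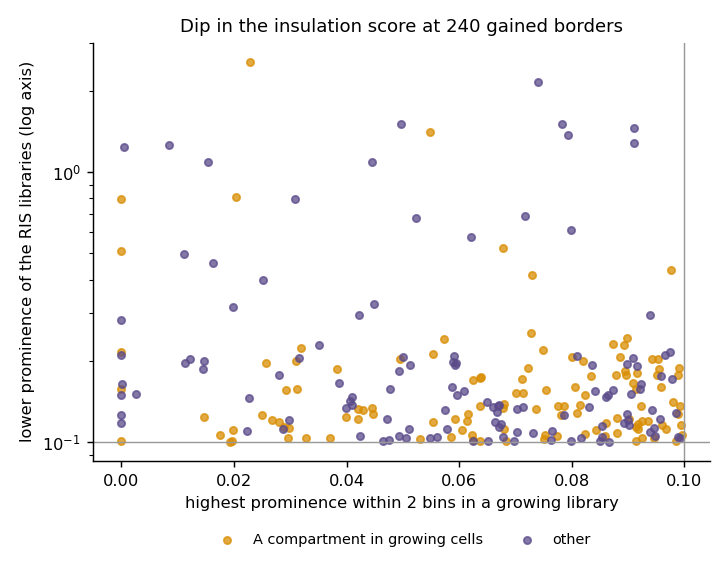
Each of the 240 gained borders by its highest prominence within 2 bins in any of the 3 growing libraries (x axis, log2 units) and the lower of its prominences in the 2 RIS libraries (y axis, log2 units on a log axis). Lines mark the threshold of 0.1 that chose the members, and 131 members have a lower RIS prominence under 0.15.

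The members just inside the threshold were at BCL2 and KDSR on chromosome 18, where the prominences were 0.10 and 0.103 in RIS replicates 1 and 2, at BCAS2 and DENND2C on chromosome 1 (0.10 and 0.104), and at ZNF181 and ZNF302 on chromosome 19 (0.101 and 0.136). The minima just outside it were at KCNQ1 on chromosome 11 (0.173 and 0.0999), PRKAR1B on chromosome 7 (0.0998 and 0.177) and SAA2 and SAA4 on chromosome 11 (0.131 and 0.0994).

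The score fell by a median of 0.07 from growing to RIS cells over 239 members (quartiles -0.16 and 0.01, range -0.77 to 0.22). The median of the borders called under other settings was -0.027 without balancing, -0.048 with windows of 20 bins and -0.12 at a prominence of 0.2. In RIS cells the score was lower at 175 members and higher at 64. Both RIS libraries were below all growing libraries at 125 of 239, where 30.1% of all scored positions had this order, and above all of them at 39, where 41.9% of all positions did. These shares come from the contrast that chose the members. Over all scored positions the median change was 0.02, and over borders of all 5 libraries it was -0.02. The median score of the members was -0.07, -0.06 and -0.07 in growing cells, against -0.14 and -0.15 in RIS cells. The median change was -0.06 among the libraries with few duplicates and -0.07 among those with many. It was below 0 in both at 149 members, as at 36.1% of all scored positions, but the same libraries chose the members. The remaining member, on chromosome 19 at TRAPPC6A and PPP1R37, had no score in growing replicate 2.

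**Figure D2:**
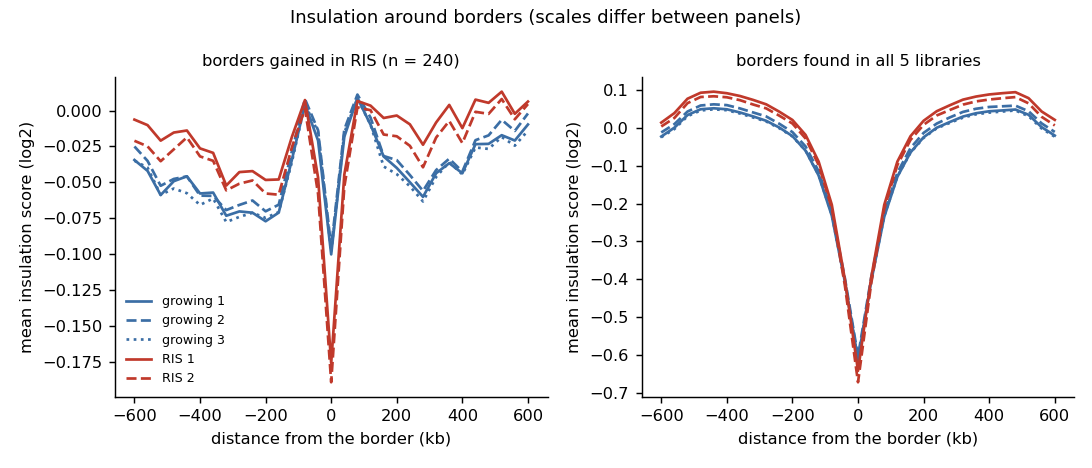
Mean insulation score (log2) by distance from the border in each of the 5 Hi-C libraries, for the 240 gained borders and for 4049 borders found in all 5 libraries, on different y scales. At gained borders the mean is -0.10 in each growing library and -0.18 and -0.19 in the RIS libraries, against -0.61, -0.60 and -0.62 in growing and -0.64 and -0.67 in RIS libraries at the shared borders.

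The rule selected for less contact across the border in RIS cells. Relative to the mean at the same distance in each library, the contact across a gained border changed by a median of -0.08 (log2) between growing and RIS cells, and it rose at 57 of 240 members (23.8%, beside 40.2% of borders of all 5 libraries). Contact within the 520 kb to the left changed by a median of 0.06 and was higher at 167 members (69.6%), and to the right by 0.06 and at 168 (70.0%). Borders of all 5 libraries had nearly the same shares, 67.5% on the left and 68.5% on the right, with median changes of 0.04 on both sides. The difference between contact within and across had a median of 0.14, 0.15 and 0.14 in growing cells, against 0.26 and 0.28 in RIS cells. At borders of all 5 libraries the medians were 0.78, 0.78 and 0.78 in growing and 0.85 and 0.88 in RIS libraries. The rule kept members clear of growing borders, and how much of this gap it sets was not measured.

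**Figure D3:**
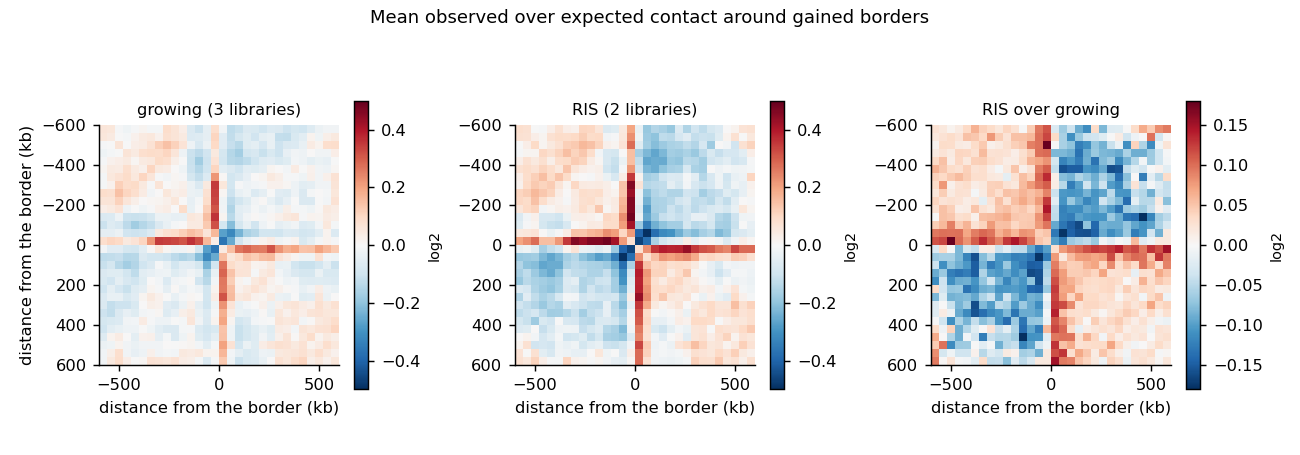
Mean observed over expected contact (log2 colour scale) around the 240 gained borders, with both axes giving distance from the border in kb, for the mean of 3 growing libraries, the mean of 2 RIS libraries, and their ratio. In the ratio the squares across the border are mostly below 0 and those within either side mostly above 0.

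The largest fall was at the end of HMGA2, a high mobility group protein of senescence-associated heterochromatin foci. The border, at 66360000 on chromosome 12, lies 71 bases before the last base of the gene, 142 kb from its start site. The score was -0.07, -0.04 and 0.02 in growing cells, against -0.87 and -0.74 in RIS cells, a change of -0.77. The groups are far apart, and no growing library had even a shallow minimum there. The contacts across it numbered 5915, 6690 and 6684 in growing and 2279 and 3186 in RIS libraries. Contact across changed by -0.78 (log2), contact on the left side, which holds HMGA2, by -0.13 and contact on the right by 0.10. In growing cells the position lay inside a domain of 880 kb. The study had already reported, from these Hi-C data and by DNA-FISH, that HMGA2 moved away from its neighbourhood in RIS.

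Of the other 11 borders with the largest fall, 5 had genes in their zone. The second was in SLC16A3, a lactate exporter, and 3.10 kb from the end of CSNK1D, a casein kinase, at 80200000 on chromosome 17. Its scores were -0.02, 0.33 and 0.10 in growing cells, against -0.26 and -0.54 in RIS cells, and 7 bins were missing from its windows. A further border on this chromosome, at 80400000, stood 521 bases before the end of HEXD, a hexosaminidase gene, and in CYBC1, needed for the phagocyte oxidase. It scored 0.28, 0.38 and 0.30 in growing and -0.01 and -0.03 in RIS libraries. The groups did not overlap at either border, but the growing libraries at SLC16A3 spread widely (SD 0.18, n = 3).

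The border at 37080000 on chromosome 17 lay 1.98 kb beyond the end of LASP1, an actin-binding protein, with LASP1NB and FBXO47 on its other side. The scores were 0.23, 0.34 and 0.17 in growing and -0.11 and -0.14 in RIS libraries. Between ADAM2, a sperm surface protein, and IDO1, a tryptophan-degrading enzyme, the border on chromosome 8 at 39720000 was already low in growing cells at -0.75, -0.77 and -0.73, and reached -1.30 and -1.10 in RIS cells. Here a low stretch without a minimum became a minimum of prominence 2.11 and 1.24. These prominences are larger than the fall of the score, so they do not measure the change at this position.

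The border in CNTNAP3B and CNTNAP3C on chromosome 9 had the weakest data. Its growing scores of 0.26, 0.23 and 0.61 and RIS scores of 0.18 and -0.12 rested on 76 to 308 contacts, with 10 bins missing. RIS replicate 1 lay only 0.06 below the mean of growing replicates 1 and 2.

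The remaining 6 of the 12 had no protein-coding gene in their zone, and all 6 were in the B compartment, the inactive part of the genome, of growing cells. Of the 68 gained borders with no gene, 47 were in B, as were 16873 of 23353 scored positions with no gene. The nearest starts belonged to PCDH9 (515 kb away), DHFR2 (538 kb), MMS22L (749 kb), ZNF804A (457 kb), PCDH10 (510 kb) and PLOD2 (402 kb). At the border nearest PCDH9, at 68320000 on chromosome 13, the scores were -0.13, -0.18 and -0.27 in growing cells, against -0.76 and -0.67 in RIS cells. At the border nearest DHFR2 they were 0.00, -0.05 and 0.04, against -0.49 and -0.45. All 6 had both RIS libraries below every growing library, beside 30.1% of all scored positions. Picking by the largest fall makes this order likely. At all 6, contact on both sides of the border fell as well, by 0.15 to 0.28 on the left and 0.10 to 0.36 on the right (log2). At SLC16A3, LASP1 and HEXD it rose on both sides by 0.06 to 0.14, and at HMGA2 it rose only on the right. For the borders at ADAM2 and CNTNAP3B no such values are given here. Over all members, contact within rose at 134 of 172 with a gene in the zone and at 36 of 68 with none. It rose at 5 of the 21 members with a fall of 0.3 or more. The same split by gene was not taken at borders of all 5 libraries or over all positions. Over all scored positions the score also differed by gene, with a median change of 0.04 with a gene and -0.01 with none.

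**Figure D4:**
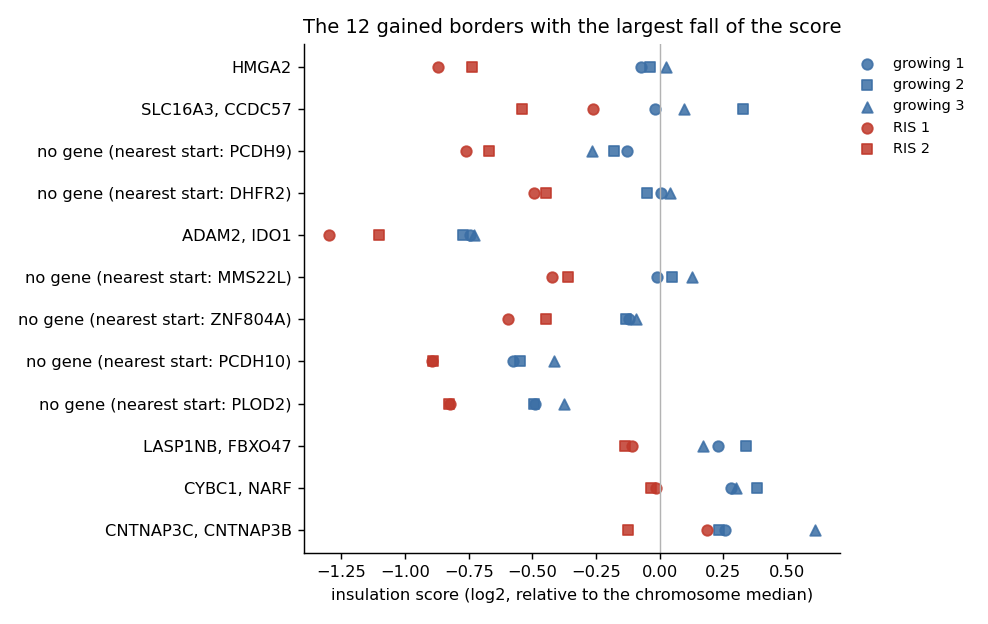
Insulation score (log2, relative to the chromosome median) of the 12 gained borders with the largest fall, with 1 point per Hi-C library, blue for growing and red for RIS. The RIS points lie left of all growing points in every row, with the widest gap at HMGA2 and the narrowest at CNTNAP3C and CNTNAP3B.

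Gained borders were spread over both compartments. Of 239 with a compartment score, 119 (49.8%) were in the A compartment of growing cells, against 49.0% of all scored positions and 65.8% of borders of all 5 libraries. In RIS cells 54.8% were in A, against 53.4% and 70.1%. The switch from B to A was seen at 15 members (6.28%, beside 5.59% of all positions), and the opposite switch at 3 (1.26%, beside 1.28%). The score changed by a median of -0.05 at the 119 members in A and -0.09 at the 120 in B. Borders of all 5 libraries differed by compartment in the same direction, with -0.00 in A and -0.09 in B, and over all scored positions the change was 0.05 in A and -0.02 in B. For the 47 members in B with no gene, the median change was -0.17, beside -0.11 at borders of all 5 libraries and -0.07 over all positions of that kind.

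Genes lay in the zones of 172 gained borders (71.7%), against 64.4% of all scored positions and 84.1% of borders of all 5 libraries. A protein-coding start site was in 105 zones (43.8%), against 33.0% and 59.8%. A gene end was in 115 (47.9%), against 31.6% and 60.1%. Gene content was thus between that of all positions and that of the stable borders. At the 62 borders lost in RIS (called in all 3 growing libraries, with none within 2 bins in RIS), a start site was in 31 zones (50.0%), a gene end in 16 (25.8%) and the CTCF core in 6 (9.68%). These lists were defined by different numbers of libraries, and their differences were not tested. The median GC content was 41.9% at gained borders, 42.2% at borders of all 5 libraries and 39.8% over all positions.

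Ends of genes that the study listed as having cohesin islands, where cohesin gathers in RIS, lay in the zones of 14 gained borders (5.83%), against 2.96% of borders of all 5 libraries and 1.24% of all scored positions. The study chose this list in the same cell model and filtered it for highly expressed genes, so it is not independent of RIS or of gene activity. The copy used here held 613 genes, slightly fewer than the study's count, and 610 were matched. All 14 were in the A compartment of growing cells, where the share in A of listed genes elsewhere was not taken. The median change of the score was -0.13. They were at HMGA2, SLC16A3 with CSNK1D, GSE1, STC1, SPRY4, AMPD3, NFKBIE with SLC35B2 and HSP90AB1, ABHD12, PRRT2, PDGFRB, TCF7L2, RCC1, PPP1R37, and GPX3 with TNIP1. At 7 of them (50.0%) both RIS libraries were below all growing libraries, beside 52.1% of all members and 30.1% of all scored positions, in the contrast that chose the members. The border at PPP1R37 is the member with no score in growing replicate 2. At GSE1 the scores were -0.32, -0.34 and -0.37 in growing cells, against -0.63 and -0.67 in RIS cells. At GPX3, a secreted glutathione peroxidase, the score rose instead, from -0.13, -0.10 and -0.17 to 0.03 and -0.02. HMGA2, AMPD3 and GRIP1, all in gained zones, are on the study's list of upregulated genes that lost contact with regions marked by H3K27me3 in RIS. This list came from contact changes in the same Hi-C data, so it is not independent of the contrast that chose the members. The copy used here held 95 genes, fewer than the study's own count, and 90 were matched. The 3 genes in gained zones were 3.33% of those matched, beside 1.71% of all protein-coding genes.

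Of 190 genes on lists of senescence and fibroblast genes, 5 were in the zone of a gained border (2.63%), beside 1.71% of all 19229 protein-coding genes. They were HMGA2, LMNB1, RB1, PDGFRB and, of 49 secretory genes, STC1. The zones held none of 15 AP-1 factors, 29 collagen and matrix genes and 22 regulators of the secretory phenotype, and at that share less than 1 gene of each list would lie in a zone. At STC1, a secreted glycoprotein, the border lay 7.68 kb from the start site, and the scores were -0.09, -0.08 and -0.09 in growing and -0.25 and -0.32 in RIS libraries, so the groups were apart. LMNB1 encodes lamin B1, which is lost in senescence. Its border, 7.69 kb inside the gene, scored -0.19, -0.19 and -0.25 in growing and -0.23 and -0.29 in RIS libraries, which overlap. At RB1, which restrains the cell cycle, the border was 13.6 kb before the gene end, and 0.17, 0.19 and 0.15 in growing stood against 0.18 and 0.15 in RIS libraries. At PDGFRB, a growth factor receptor of fibroblasts, the scores were -0.06, -0.02 and -0.09 against -0.02 and -0.15. At LMNB1, RB1 and PDGFRB the score itself hardly moved, and the borders were called on their depth below the neighbouring scores.

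In growing cells, 236 gained borders lay between a pair of borders of the mean growing matrix. The domain around them had a median length of 760 kb (240 to 5640 kb), beside 440 kb over all 5013 growing domains. The rule itself keeps members out of short domains, and longer domains hold more positions. The shorter piece the members would cut off had a median of 200 kb. The nearest growing border of any library was a median of 200 kb away, 5 bins, and lay 3 to 5 bins away at 136 members. No such share was taken for other positions with no growing border within 2 bins.

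The rule did not use the cHi-C libraries, so these were tested. The study describes them as matching the Hi-C libraries, and whether both came from the same cells is not given in the sources used here. They held 171610350 and 149199120 recovered contacts in growing cells, against 99712376 and 68876547 in RIS cells. The question was whether contact across gained borders, set against contact within their sides, differed there. The Hi-C score set contact across against the chromosome median instead, so the scores are unlike measures. The cHi-C score can also fall where contact within rises. Of 8 members inside captured regions, 6 had 200 kb of captured sequence on either side. There a score was taken in 10 kb bins as the log2 mean contact across minus the mean log2 contact within the windows of 200 kb, and limma was fitted over 937 positions in captured regions. At an adjusted p of 0.05 limma called 353 positions (37.7%), of which 318 were lower and 35 higher in RIS. The median change over all 937 positions was -0.08 (quartiles -0.15 and -0.01). Each position was tested against a change of 0, so the p-values of the members take in this general fall. Of the 6 gained borders, 4 were called, each lower in RIS. Neighbouring positions share contacts, so the errors of single positions are not independent. Limma gave every position the same spread, so a p-value does not reflect the spread at its own position and may be too small.

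The border at 7280000 on chromosome 1, in CAMTA1, a calmodulin-binding transcription activator, scored -2.05 and -2.06 in growing and -2.25 and -2.40 in RIS cHi-C libraries. The change was -0.27 ± 0.05 (SE, limma adjusted p = 1.7e-06). The border on chromosome 8 at 79880000, 162 kb from the start of the cytokine gene IL7, scored -1.80 and -1.83 in growing and -2.09 and -2.13 in RIS libraries (change -0.29 ± 0.05, limma adjusted p = 2.2e-07). At RB1 the scores were -2.48 and -2.53 against -2.68 and -2.78 (change -0.23 ± 0.05, limma adjusted p = 6.8e-05). At 132240000 on chromosome 5, with LEAP2, GDF9, UQCRQ and AFF4, a scaffold of the super elongation complex, in the zone, they were -2.27 and -2.30 against -2.49 and -2.52 (change -0.22 ± 0.05, limma adjusted p = 0.00013). In all 4 the RIS libraries were below both growing libraries. RIS replicate 2, the library with the fewest contacts, had the lowest score at all 6 members scored in cHi-C, and the part of depth in these differences was not tested. The Hi-C score changed by -0.06 at CAMTA1, -0.25 near IL7, -0.009 at RB1 and -0.04 at AFF4. At KCNT2 and UACA, described next, it changed by -0.09 and -0.07.

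The other 2 were not called. In KCNT2, a potassium channel gene, -2.16 and -2.19 in growing stood against -2.22 and -2.36 in RIS libraries (change -0.12 ± 0.05, limma adjusted p = 0.063). In UACA, a coiled-coil protein, -2.55 and -2.57 stood against -2.57 and -2.76, with overlap (change -0.10 ± 0.05, limma adjusted p = 0.097). The changes at KCNT2 and UACA lay within the quartiles of all tested positions. Both RIS libraries were thus below both growing libraries at 5 of 6 members, where 58.1% of the tested positions had this order, and above both at none, where 10.4% did. The exact permutation test, two-sided, cannot go below p = 0.333 for 2 libraries against 2, which those 5 members reached, and it gave p = 0.667 at UACA. Without growing replicate 1, AFF4 (change -0.20) and RB1 (-0.20) were no longer called, and the number of called positions fell to 133. It was 143 without growing replicate 2, 481 without RIS replicate 2 and 684 without RIS replicate 1, where KCNT2 (-0.18) and UACA (-0.20) were called too. Without RIS replicate 2, the change was only -0.047 at KCNT2 and -0.012 at UACA. Windows of 30 bins of 10 kb (-0.16) and values without balancing (-0.16) also gave a call at UACA, but in windows of 100 kb its change was -0.051. With windows of 100 kb, AFF4 was not called (-0.14). LMNB1, too near the edge for the wider window, then scored -2.14 and -2.22 in growing and -2.35 and -2.38 in RIS libraries, a change of -0.19 ± 0.06.

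**Figure D5:**
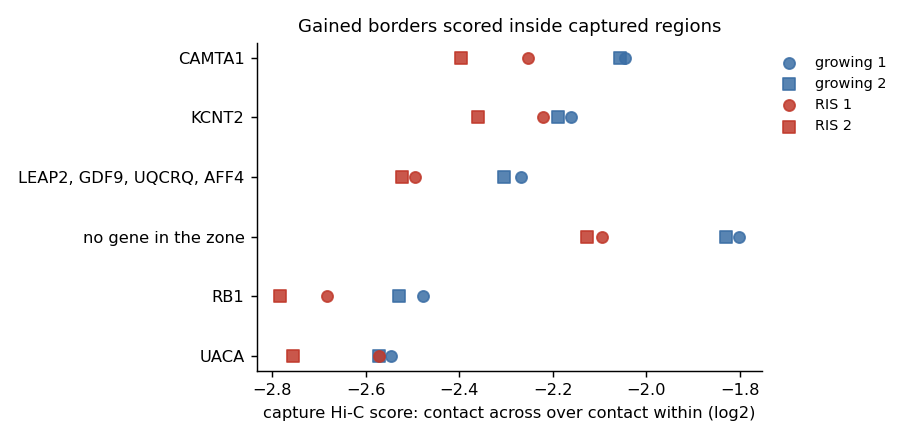
Capture Hi-C score (log2 contact across over contact within windows of 200 kb) at the 6 gained borders scored inside captured regions, with 1 point per library, blue for growing and red for RIS. The RIS points lie left of both growing points at 5 of the 6, and overlap with them at UACA.

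At 4 of the 6 members the cHi-C scores were well below their flanks in growing cells already. Against the mean of the positions 120 kb to either side, the score at RB1 differed by -0.93 and -0.94 in growing libraries and by -1.17 and -1.20 in RIS libraries. At KCNT2 the differences were -0.72 and -0.73, and -0.73 and -0.82. At UACA they were -0.61 and -0.59, and -0.62 and -0.67. At CAMTA1 they were -0.38 and -0.40 in growing and -0.59 and -0.66 in RIS libraries. The border near IL7 differed least from its flanks in growing cells (-0.05 and -0.06), and more in RIS cells (-0.30 and -0.27), with the lowest score 30 and 40 kb to its left. The border at AFF4, too near the edge of its captured region for the flank on the right, had no minimum of its own. Its growing scores of -2.27 and -2.30 lay above -2.55 and -2.59 found 70 kb to the left, and its RIS scores of -2.49 and -2.52 above -2.87 and -2.95 found 40 and 70 kb to the left.

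Which positions were called depended on the settings. With windows of 8 bins 221 gained borders were called, of which 44 lay within 1 bin of a member. At a prominence of 0.2, 56 of 242 did, and without balancing 46 of 247. After thinning all libraries to the contacts of the shallowest, 180 of the 240 members were called again. Borders gained in RIS replicate 1 alone numbered 395, and 64.8% of them had a border within 1 bin in RIS replicate 2, against 95.7% of the other borders of RIS replicate 1. In the opposite direction the shares were 54.3% of 479 and 92.4%.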

How the data were processed

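The Hi-C and cHi-C files of 9 libraries were used. The authors mapped reads to hg19 with HiC-Pro, filtered artefacts with HiC-Pro and diffHic, took out duplicates with samtools, and deposited ICE-balanced signal for each pair of bins (Hi-C 40 kb, cHi-C 10 kb). Balancing equalizes bin sums and hides depth. Dividing by 1 factor per bin gave whole contacts, which served as depth and for alternatives. This held for at least 99.7% of values (tolerance 0.05 contacts, or 1% of larger counts), and for at least 99.68% of values of up to 5 contacts. In cHi-C the factors were refined against the nearest whole counts, so these shares are partly built in there.

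A position was scored where at least 7 of 13 bins on either side were measured. Compartments were the first component in 120 kb bins, signed by gene density. Genes came from GENCODE lifted to GRCh37, whose chromosome lengths match the files, and older symbols from RefSeq. Captured regions, duplicate classes and gene lists came from the study's supplements. The study called borders with TADbit, which was not used here, and reported them to be similar between growing and RIS cells. The border caller found 100% of 245 simulated borders within 1 bin at the depth of the shallowest Hi-C library. All were given the same strong contrast, and borders as shallow as most members were not simulated. Members named one by one were the 12 with the largest fall, those scored in cHi-C, those with a listed gene, and 3 on each side of the threshold. Members and lists were chosen with earlier results of these data known. Alternatives changed windows, prominence, distance, depth, balancing, blocks and libraries. Software was Python 3.11.15, numpy 2.4.6, scipy 1.17.1, and R 4.3.3 with limma 3.58.1.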

Additional observations from a re-analysis of the deposited data

How the results depend on the processing

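The number of gained borders, 240, ranged from 182 to 330 under changes of window, prominence, distance, slack, depth, balancing and missing bins. It was 647 with the mean matrix of each group, 483 with the few-duplicate and 756 with the many-duplicate libraries, and 281 to 479 with 1 library left out, settings that ask fewer libraries to share or to lack a border. The median change, over members chosen anew by the same rule each time, was -0.082 with 8 bins, -0.048 with 20 bins, -0.12 at a prominence of 0.2 and -0.027 without balancing, and -0.076 to -0.069 with a library left out. The share in A was 56.5% with 20 bins, and 43.5% to 53.2% with a library left out. The share with a start site was 51.2% with 20 bins, 55.4% at a prominence of 0.2 and 57.5% in zones of 2 bins, and 38.7% to 45.6% with a library left out. The share with the CTCF core was 18.1% with 8 bins and 32.9% in zones of 2 bins, and 21.5% to 25.2% with a library left out. In cHi-C, 353 called positions became 133 to 684 with a library left out, and the median change of the members, -0.23, became -0.26 to -0.19, and -0.17 in windows of 100 kb. The cause of these shifts was not tested. Growing and RIS replicates share numbers, and their deviations correlated at r = 0.12 for number 1. With the replicate block limma called 433 positions, KCNT2 and UACA among them, and the median change of the members was -0.23. No member reversed its direction in cHi-C. After thinning to the shallowest library 180 of the 240 members were called again, and 30 members had missing bins.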

Other observations

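On chromosome 19, gained borders often had zinc finger genes in their zones, a pattern noticed after the values were seen and given without a test. The 13 members there came to 2.48 per 10 Mb of scored sequence, against 0.915 over all autosomes, and 9 of them had a gene whose symbol starts with ZNF in the zone (69.2%), beside 27.5% of 1310 scored positions and 21.8% of the borders of all 5 libraries on this chromosome. They included ZNF136 and ZNF20, ZNF626, ZNF254, ZNF260 and ZNF566, ZNF331, and ZNF71.

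Of the 240 members, 10 were called within 1 bin under 5 of 6 other settings (windows of 8 and 20 bins, prominence 0.2, distance of 3 bins, thinning, no balancing), and none under all 6. The mean matrix of each group called all 240 again, but it averages the libraries that chose the members, so this is no independent check. The 10 members were at HMGA2, at GRIP1 on the same chromosome, at EMCN, TFPI2, GLIPR1L1, MBNL2 and APCDD1L, and at positions whose nearest starts were GYPC, CPA6 and ATP2B1. At MBNL2, a splicing regulator, the score rose from 0.16, 0.15 and 0.15 in growing cells to 0.33 and 0.29 in RIS cells. At APCDD1L it fell from 0.25, 0.23 and 0.26 to -0.07 and -0.04, and contact on its left and right rose by 0.19 and 0.13 (log2).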
